A study of Mus musculus with 5 samples.

Results

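Bone morphogenetic protein (BMP) signalling was examined in endothelial cells sorted from the mouse thymus, through 10 genes: the ligands Bmp4, Bmp2 and Bmp6, the receptors Bmpr1a, Bmpr2 and Acvrl1, the target genes Id1, Id2 and Id3, and the target and inhibitor Smad6. The members were all probe sets whose platform annotation named exactly 1 of these genes, which gave 16 of the 22626 probe sets that are not controls. They stand for 10 of the 12393 genes that the array names. Bmpr1a had 5 of them, Id2 had 3 and each of the other genes had 1. Of the 5 arrays, 2 held thymic cells taken 4 days after sublethal total body irradiation of 550 cGy from a cesium source, with no hematopoietic rescue (day 4). The other 3 held cells of untreated mice (day 0). All mice were female C57BL/6J mice of 6 to 8 weeks. Each array held RNA of endothelial cells pooled from several mice, and the sort kept VE-cadherin-positive cells that lacked CD45 and EpCAM. The labels gave the day 4 cell type as CD45- thymic stromal cells and the day 0 cell type as thymic endothelial cells, while the protocol described the same sort for both. Because nothing in the labels ties a pool to a separate experiment, p-values here reflect only how far these pools differ from one another, and part of that may be technical.

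BMPs are secreted proteins of the TGF-beta superfamily. A BMP brings together type I receptors, such as those encoded by Bmpr1a and Acvrl1, and a type II receptor, such as that encoded by Bmpr2, and the activated receptors phosphorylate Smad proteins that enter the nucleus with Smad4. The Id genes are classic direct targets of these Smads, and their products block transcription factors of the E protein family. In the thymus, BMP4 made by endothelial and mesenchymal cells acts on epithelial cells and supports their expression of Foxn1, and endothelial BMP4 has been described as a signal of thymic repair after damage. The comparison asked how the endothelial arm of this pathway stood 4 days after irradiation.

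Sequences upstream of the genes are shown for the ligand and the receptor with the largest differences, Bmp4 and Bmpr2, and for the Id genes with an entry in the promoter table, Id2 and Id3. They come from RefSeq on build GRCm38.p6 and run from 250 to 31 bases before the gene's start, 5′ to 3′, on the strand of the gene. Capitals mark GGCGCC, a GC-rich core of BMP response elements, and CAGAC or its complement GTCTG, a Smad-binding element, each searched on both strands. GGCGCC reads the same on both strands, and no match of one motif overlapped the other.
Bmp4, chr14:46390700-46390919, minus strand: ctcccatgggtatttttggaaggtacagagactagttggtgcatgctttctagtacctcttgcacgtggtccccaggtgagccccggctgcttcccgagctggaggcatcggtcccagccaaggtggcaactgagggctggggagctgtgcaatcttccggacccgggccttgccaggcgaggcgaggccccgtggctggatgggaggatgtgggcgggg
Bmpr2, chr1:59764029-59764248, plus strand: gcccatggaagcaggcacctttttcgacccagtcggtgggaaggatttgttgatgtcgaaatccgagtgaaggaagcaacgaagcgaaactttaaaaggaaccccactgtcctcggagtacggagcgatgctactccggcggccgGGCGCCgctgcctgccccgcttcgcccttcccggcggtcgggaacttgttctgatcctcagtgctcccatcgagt
Id2, chr12:25096123-25096342, minus strand: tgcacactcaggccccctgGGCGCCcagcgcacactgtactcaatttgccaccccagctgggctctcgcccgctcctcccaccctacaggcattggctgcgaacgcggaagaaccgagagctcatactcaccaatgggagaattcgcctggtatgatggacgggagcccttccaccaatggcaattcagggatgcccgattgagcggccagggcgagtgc
Id3, chr4:136143572-136143791, plus strand: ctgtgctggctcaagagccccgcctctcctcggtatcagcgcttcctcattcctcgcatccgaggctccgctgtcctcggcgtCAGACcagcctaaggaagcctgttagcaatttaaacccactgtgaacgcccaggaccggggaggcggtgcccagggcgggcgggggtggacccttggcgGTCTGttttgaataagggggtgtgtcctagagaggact
Of the 10 genes, 7 were matched in the table, and Bmp2, Acvrl1 and Id1 are named only. GGCGCC stood in 3 of the 7 windows, those of Bmpr2, Bmpr1a and Id2, and in 8.16% of the 32851 windows of that length in the table. CAGAC or GTCTG stood in 2 of the 7, those of Id3, which held it at 2 places, and of Bmp6, against 38.5% of all windows. The window of Bmp4 held neither motif, nor did that of Smad6. Base composition differed as well: G and C made up 59.5% to 78.6% of the member windows, and the median over all windows was 51.8%. A match is a run of letters in this window, and binding was not measured here.

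Values are given on the GCRMA log2 scale, where a difference of 1 is a 2-fold change. All 16 member probe sets passed the level filter, a log2 value above 4 on at least 2 arrays, and entered the limma fit over 15065 probe sets. Differences are day 4 minus day 0. A probe set was called when its Benjamini-Hochberg adjusted p over all tested probe sets was under 0.05, which held for 1.39% of them. Of the 16, 0 were called in either direction, and limma adjusted p ranged over 0.172 to 0.988. An unadjusted p under 0.05 was found for 2 of the 16, Bmp4 and Bmpr2, against 19.4% of all tested probe sets. The 95% interval of the difference lay inside a 2-fold change in either direction for 14 of the 16 probe sets, which was so for 91.5% of all tested probe sets. The exceptions were Bmp4 and Id1. Differences were above 0 for 9 member probe sets and below 0 for 7, with a median of 0.064, and the median over all tested probe sets was -0.0044. The day 4 and day 0 arrays did not overlap for 6 of the 16, against 39.6% of all tested probe sets. Most endothelial marker genes lay well above the filter in both groups. All 12 genes of an endothelial marker list, Cdh5 for VE-cadherin and Pecam1 among them, lay above 4 on every array. Of the 12, 0 were called (1 at an unadjusted p under 0.05). The lowest of them, Erg, lay not far above the filter, at 4.64 and 4.68 at day 4, against 4.36, 4.52 and 4.57 at day 0. A level above 4 does not by itself tell cell types apart. Of 11 fibroblast and mesenchymal marker genes, 10 also lay above it on every array. The proteins that the sort selected against are encoded by Ptprc, for CD45, and Epcam, and both genes lay above 4 on every array. Ptprc stood at 6.68 and 6.38 at day 4, against 6.86, 6.08 and 6.63 at day 0. Epcam stood at 7.17 and 5.67 at day 4, against 7.27, 6.59 and 6.83 at day 0. The groups overlapped for both genes and neither was called (limma adjusted p = 0.994 and 0.582). Markers of other cells were also measured, and some moved between the groups. Of 13 tested myeloid genes 3 were called higher and 2 lower (11 higher and 2 lower at an unadjusted p under 0.05). Averaged over the 14 myeloid genes with a probe set, levels were 6.87 and 6.80 in irradiated pools, against 6.26, 5.46 and 5.69 in untreated pools. Both tested B cell genes and the 1 tested erythroid gene were called lower. Of 10 thymic epithelial genes 0 were called, but 9 had differences below 0, with a median of -0.96, and 4 of these had an unadjusted p under 0.05. Averaged over the 11 epithelial genes with a probe set, levels were 6.41 and 5.64 in irradiated pools, against 7.13, 6.57 and 6.54 in untreated pools. By this average the day 4 arrays differed from each other by more than the day 0 arrays did. Of 8 pericyte and smooth muscle genes 0 were called (1 at an unadjusted p under 0.05). The part of these cells in the member values was not tested.

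**Figure D1:**
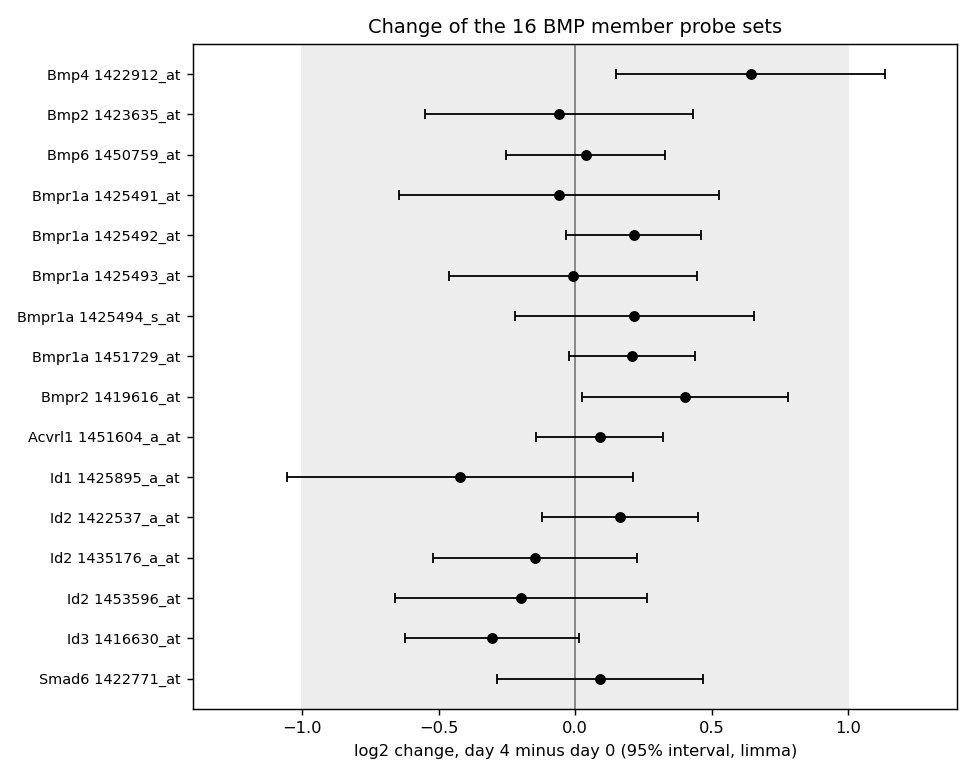
Day 4 minus day 0 log2 change of each of the 16 BMP member probe sets (points), with the 95% interval from limma (bars) and the range of a 2-fold change in either direction shaded. Bmp4 reaches past the shaded range on the right and Id1 on the left, and the other 14 intervals lie inside it.

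Among the ligands, Bmp4 had the largest difference of the 10 genes, while Bmp2 and Bmp6 lay close to 0. Bmp4 stood at 7.55 and 8.13 on the day 4 arrays, against 7.05, 7.13 and 7.41 on the day 0 arrays. Both day 4 values were above every day 0 value, but day 4 replicate 1 was only just above the highest of them, and the other was clearly higher. The difference was 0.64 ± 0.20 (SE), a 1.56-fold higher level at day 4, with a 95% interval of 0.15 to 1.14, and it was not called (limma adjusted p = 0.172). A difference of this size in either direction was found in 5.47% of all tested probe sets. The gap between the day 4 arrays, 0.59, was nearly as large as the difference itself, and 7.52% of tested probe sets had a gap at least as large.

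Bmp4 is also made by mesenchymal cells, so markers of those cells are given beside it. Of 11 fibroblast and mesenchymal marker genes, 10 lay above the filter on all arrays, and of the 10 tested 0 were called (2 at an unadjusted p under 0.05). Averaged over the 11, they stood at 7.76 and 7.42 at day 4, against 7.63, 7.59 and 7.44 in untreated pools. Their part in the Bmp4 values was not tested. In sorted pools of this kind, a change in the share of a cell type and a change in RNA per cell cannot be told apart.

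Bmp2, a close relative of Bmp4, stood at 7.83 and 7.25 at day 4, against 7.74, 7.66 and 7.38 at day 0. The day 4 arrays enclosed all of the day 0 values, and they ran opposite to Bmp4, with day 4 replicate 1 the higher. The difference of -0.058 (95% interval -0.55 to 0.43) was not called, with a limma adjusted p of 0.898. Bmp6, which endothelial cells of the liver use to control iron storage, varied least among the ligands. It stood at 8.71 and 8.77 at day 4, against 8.67, 8.57 and 8.87 at day 0. Its day 4 values lay within the day 0 range, and the difference was 0.039 (95% interval -0.25 to 0.33, limma adjusted p = 0.884).

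**Figure D2:**
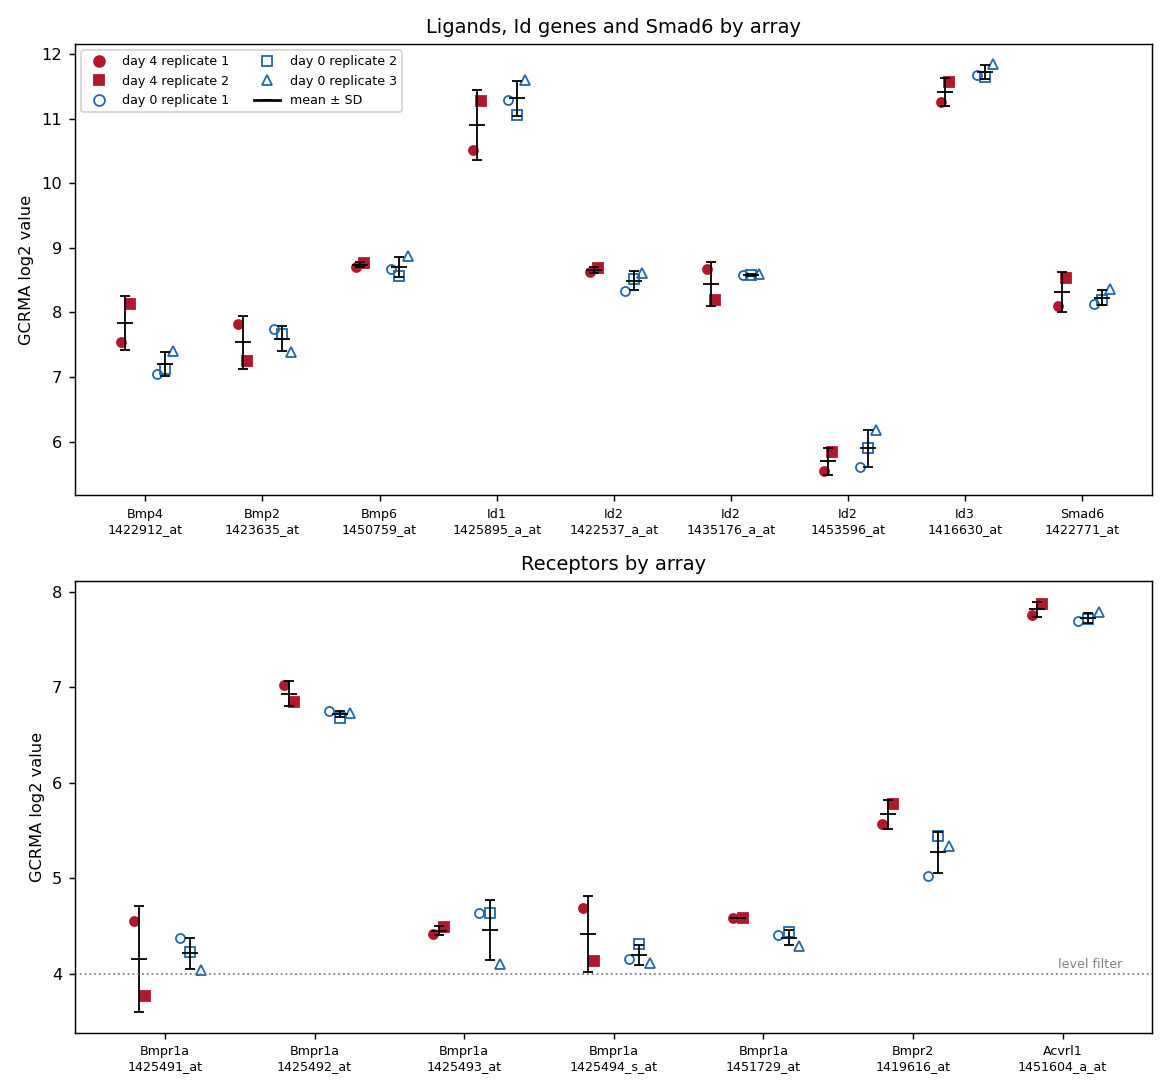
GCRMA log2 value of each member probe set on each array, with ligands, Id genes and Smad6 above and receptors below. Filled red symbols are the 2 day 4 arrays, open blue symbols the 3 day 0 arrays, black bars the mean ± SD, and the dotted line the level filter at 4. Values of different probe sets are not comparable with each other. The day 4 values of Bmp4, Bmpr2, Bmpr1a 1425492_at and 1451729_at, and Id2 1422537_a_at lie above all day 0 values. Those of Id3 lie below all day 0 values. Of the 5 Bmpr1a probe sets, 4 lie near the filter.

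Among the receptors, Bmpr2 had the largest difference. Bmpr2, the main type II receptor for BMPs in endothelium and the gene most often mutated in heritable pulmonary arterial hypertension in humans, stood at 5.56 and 5.78 at day 4, against 5.03, 5.44 and 5.34 at day 0. Both day 4 arrays lay above all day 0 arrays. The difference was 0.40 ± 0.15 (SE), or 1.32-fold, with a 95% interval of 0.026 to 0.78, and was not called (limma adjusted p = 0.233). Acvrl1 encodes ALK1, the type I receptor through which endothelial cells sense circulating BMP9 and BMP10. It stood at 7.76 and 7.88 at day 4, against 7.69, 7.71 and 7.79 at day 0. The groups overlapped, since day 4 replicate 1 was below the highest day 0 value, and the difference of 0.089 (95% interval -0.14 to 0.32) gave a limma adjusted p of 0.637.

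Bmpr1a encodes ALK3, a widely expressed type I receptor for BMP2 and BMP4, and its 5 probe sets did not all point the same way. Probe set 1425492_at, well above the filter on every array, stood at 7.03 and 6.84 at day 4, against 6.75, 6.68 and 6.73 at day 0. Both day 4 arrays lay above the day 0 arrays, by a difference of 0.21 ± 0.10 (SE) with a 95% interval of -0.032 to 0.46 (limma adjusted p = 0.304). The other 4 probe sets stood between 3.76 and 4.69 on all arrays, close to the filter, where GCRMA values rest largely on background. Of these, 1451729_at also had both day 4 arrays above day 0, at 4.59 on each, against 4.41, 4.43 and 4.29 at day 0. Its difference was 0.21 (limma adjusted p = 0.294), and that of 1425494_s_at, whose suffix marks probes shared between transcripts, was 0.22 (limma adjusted p = 0.540) with overlapping groups. The remaining probe sets, 1425491_at and 1425493_at, differed by -0.059 (limma adjusted p = 0.914) and by -0.0073 (limma adjusted p = 0.988). On the first of them the day 4 arrays, at 4.55 and 3.76, enclosed the day 0 values of 4.37, 4.23 and 4.04. On the second the day 4 values of 4.42 and 4.49 lay within the day 0 range, where replicates 1 and 2 held the same value, 4.64, and replicate 3 held 4.10.

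The Id genes, the usual readout of BMP signalling in a responding cell, had no called change at day 4. Of their 5 probe sets 0 were called, also 0 at an unadjusted limma p under 0.05, and 4 had differences below 0. Id1, the most widely used BMP target in endothelial cells, stood at 10.51 and 11.28 at day 4, against 11.29, 11.06 and 11.60 at day 0. Day 4 replicate 1 was the lowest of all arrays, while day 4 replicate 2 fell among the day 0 values. The difference was -0.42 ± 0.26 (SE), with a 95% interval of -1.05 to 0.21 (limma adjusted p = 0.416), so a fall of 2-fold lay just within the interval. The day 4 arrays differed from each other by 0.77, and 3.31% of all tested probe sets had a gap at least as large.

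Id3, which also acts in developing T cells, stood at 11.26 and 11.57 at day 4, against 11.68, 11.64 and 11.84 at day 0. Both day 4 values were below every day 0 value, and day 4 replicate 2 only by a small margin. The difference was -0.30 ± 0.13 (SE), with a 95% interval of -0.62 to 0.016 (limma adjusted p = 0.273). Markers of thymocytes were lower at day 4 too. Of the 11 thymocyte and T lineage genes with a probe set, 9 were tested, 5 were called lower and 0 higher, and Rag2 lay under the filter on every array. Averaged over the 11, levels were 3.94 and 3.92 in irradiated pools, against 5.84, 5.14 and 5.64 in untreated pools. Their part in the Id3 values was not tested.

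Id2, which is needed for innate lymphoid cells and is also expressed in endothelium, had 3 probe sets that disagreed in direction. Probe set 1422537_a_at stood at 8.62 and 8.68 at day 4, against 8.33, 8.52 and 8.62 at day 0, a difference of 0.16 with a 95% interval of -0.12 to 0.45 (limma adjusted p = 0.475). The day 4 arrays lay above day 0 here, day 4 replicate 1 by less than 0.01. Probe set 1435176_a_at, by contrast, stood at 8.68 and 8.20 at day 4, against 8.58, 8.58 and 8.60 at day 0. Here the day 0 arrays were nearly identical and the day 4 arrays lay on either side of them, for a difference of -0.15 (limma adjusted p = 0.626). The third, 1453596_at, stood at 5.55 and 5.84 at day 4, against 5.60, 5.90 and 6.17 at day 0, with overlapping groups and a difference of -0.20 (limma adjusted p = 0.594). Averaged over its probe sets, Id2 differed by -0.061, opposite in sign to 1422537_a_at, its probe set with the highest mean.

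Smad6, an inhibitory Smad that BMP signalling itself induces in endothelium, stood at 8.10 and 8.53 at day 4, against 8.13, 8.19 and 8.36 at day 0. Its day 4 arrays were the lowest and the highest of the 5. The difference of 0.090 (95% interval -0.29 to 0.47, limma adjusted p = 0.779) was smaller than the gap of 0.43 between the day 4 arrays.

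Several differences rested on which day 4 array was used. With a day 4 array left out, the remaining 1 is assumed to vary like the day 0 arrays, which alone give the spread, so these fits are read for the size of a difference and not for its p. Without day 4 replicate 2 the Bmp4 difference was 0.35, and without day 4 replicate 1 it was 0.94. It was above 0 in all 14 alternatives, with limma adjusted p of 0.0940 to 0.383. Not all of these could turn the sign. Changes of filter or gene summary, and an intensity trend with robust fitting, leave the Bmp4 difference as it was. For Id1 the difference was -0.037 without day 4 replicate 1 and -0.80 without day 4 replicate 2, and for Id3 it was -0.15 and -0.46. Bmpr2 ranged over 0.28 to 0.51 with any single array left out. The sign of Bmp2 and of Smad6 depended on the day 4 arrays: Bmp2 differed by -0.35 without replicate 1 and by 0.23 without replicate 2, and Smad6 by 0.30 and by -0.12. Bmp2 also turned, to 0.014, without day 0 replicate 1.

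**Figure D3:**
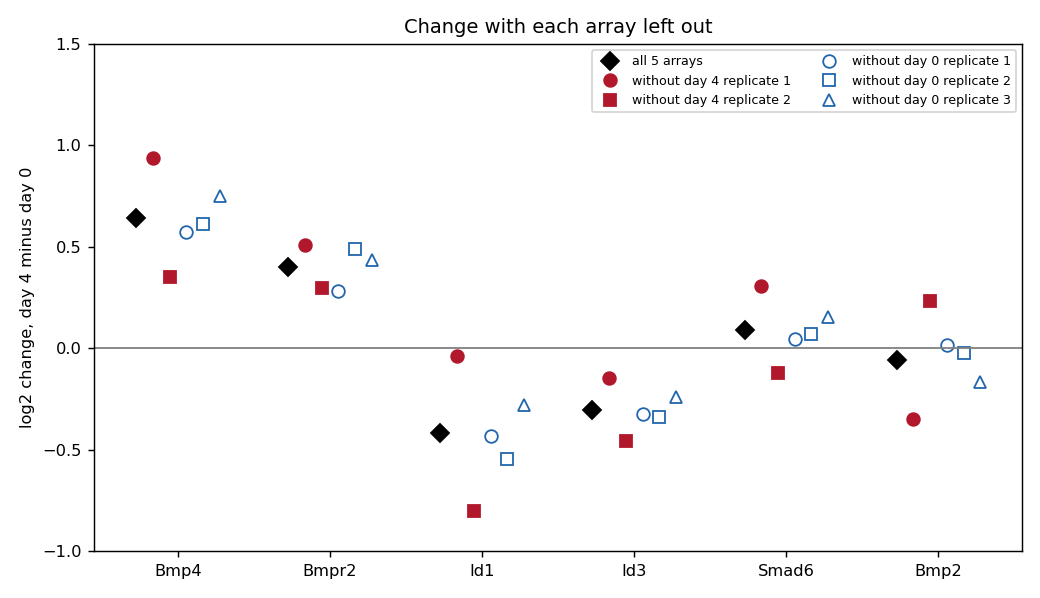
Day 4 minus day 0 log2 change of 6 member probe sets from limma with all 5 arrays (black diamonds) and with each array left out in turn (filled red, a day 4 array left out; open blue, a day 0 array left out). Bmp4 and Bmpr2 stay above 0 and Id1 and Id3 below 0, while Smad6 and Bmp2 lie on both sides.

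The patterns most like those of Bmp4 and Id1 were sought among 8940 genes, each by its probe set with the highest mean, as the smallest Euclidean distance of log2 values over the 5 arrays after centring each gene on its own mean. The nearest genes to Bmp4 were Slamf9, a receptor of the SLAM family (distance 0.18), Ercc1, a subunit of a DNA repair nuclease (0.18), and Lpl, lipoprotein lipase (0.24). Ercc1 stood at 9.40 and 9.80 at day 4, against 8.89, 8.80 and 9.19 at day 0, and was not called (limma adjusted p = 0.133). Nearest to Id1 were the zinc finger gene Zfp51 (0.22), the interferon gamma receptor gene Ifngr1 (0.22) and the alcohol dehydrogenase gene Adh1 (0.23). Chosen for its likeness to Id1 on these arrays, Ifngr1 was also low on day 4 replicate 1. It stood at 8.79 and 9.41 at day 4, against 9.39, 9.26 and 9.59 at day 0.

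The wider pathway was read from a list of 62 genes in 7 role groups, each gene by its probe set with the highest mean. Of these, 51 had a probe set and 39 passed the filter. The test called 1 of the 39 higher and 0 lower, against 1.68% called in either direction and 0.884% called higher among the 8940 genes read in this way. An unadjusted limma p under 0.05 was found for 9 of the 39, against 20.1% of the 8940. The called gene was Cdkn1a, a cell cycle inhibitor that BMP signalling can induce and that is best known as a target of p53. It stood at 12.78 on both day 4 arrays, against 11.73, 11.70 and 11.82 at day 0, a 2.05-fold rise (limma adjusted p = 0.0132). The rise was as large without any single array, at 1.01 to 1.07 on the log2 scale, but the call was lost without day 4 replicate 1 (limma adjusted p = 0.0950) or day 0 replicate 3 (limma adjusted p = 0.0621). In the first of these fits the spread came from the day 0 arrays alone. The median difference of the 39 genes was 0.028, against 0.090 for the 10 BMP genes read in the same way and -0.023 for all 8940.

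Of the other ligands, 3 of 7 with a probe set passed the filter, and 0 were called or had an unadjusted limma p under 0.05. Bmp10, which with Gdf2 is a circulating ligand of ALK1, differed by 0.20, and Gdf2, which encodes BMP9, by 0.028. Bmp5, Bmp8a and Bmp8b lay under the filter on every array. Among 4 further receptors and co-receptors 0 were called, again with 0 at an unadjusted limma p under 0.05. Acvr2b, a type II receptor shared with activin, differed by 0.23, and Acvr2a by -0.36, though the other tested probe set of Acvr2a gave 0.22. Of 7 Smads and regulators 0 were called (1 at an unadjusted limma p under 0.05). That gene was Ski, a co-repressor that binds Smads, at 8.15 and 8.20 at day 4, against 7.83, 7.85 and 7.69 at day 0, a difference of 0.38 (limma adjusted p = 0.127). The shared partner Smad4 differed by -0.14, while its other tested probe sets gave -0.0073 and 0.028.

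Among 8 secreted antagonists and modulators 0 were called (2 at an unadjusted limma p under 0.05). Fst, which encodes follistatin, an inhibitor of activins and some BMPs, came closest. Fst stood at 5.66 and 5.58 at day 4, against 4.59, 4.87 and 4.34 at day 0. The day 4 arrays agreed closely with each other and lay well above day 0, by 1.02 ± 0.16 (SE) or 2.03-fold, with a limma adjusted p of 0.0518. The day 0 values lay not far above the filter, where GCRMA values rest largely on background, which limits the fold. Adjusted over genes rather than probe sets, Fst passed (limma adjusted p = 0.0346). Fst also passed with an intensity trend and robust fitting (limma adjusted p = 0.0423) and with the replicate number as a block (limma adjusted p = 0.0448). It did not pass with array weights (limma adjusted p = 0.144), quantile normalization (limma adjusted p = 0.0568) or median centring (limma adjusted p = 0.0582). Nor did it pass with no filter (limma adjusted p = 0.0507). With a day 0 array left out, Fst passed only without day 0 replicate 2 (limma adjusted p = 0.0396). Fstl3, a relative of Fst, differed by -0.38 (limma adjusted p = 0.216). It also lay not far above the filter, between 4.09 and 4.71 on all arrays. Noggin, encoded by Nog, lay under the filter except on day 4 replicate 1, where it was 4.04. Of the 5 processing enzymes 0 were called (2 at an unadjusted limma p under 0.05). Bmp1, a protease that cleaves the BMP antagonist chordin, differed by 0.28 and the convertase gene Pcsk5 by -0.20. Pcsk5 too lay not far above the filter, between 4.11 and 4.46 on all arrays. Of 9 other target genes, the 1 called was Cdkn1a, and 3 had an unadjusted limma p under 0.05. The other Cdkn1a probe set, 1421679_a_at, differed by 1.35 (limma adjusted p = 0.0380). The lowest difference was that of the homeobox gene Msx1, -0.32, whose other probe set gave 0.035. The E protein genes Tcf3, Tcf4 and Tcf12, whose products the Id proteins bind, all had differences below 0 on these probe sets, of -0.31, -0.19 and -0.085, and 0 of the 3 were called (1 at an unadjusted limma p under 0.05). Other probe sets of Tcf12 and Tcf4 went the opposite way: 1421908_a_at of Tcf12 differed by 0.20, with both day 4 arrays above day 0, and 3 of the 6 tested for Tcf4 had differences above 0, of 0.036 to 0.093.

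**Figure D4:**
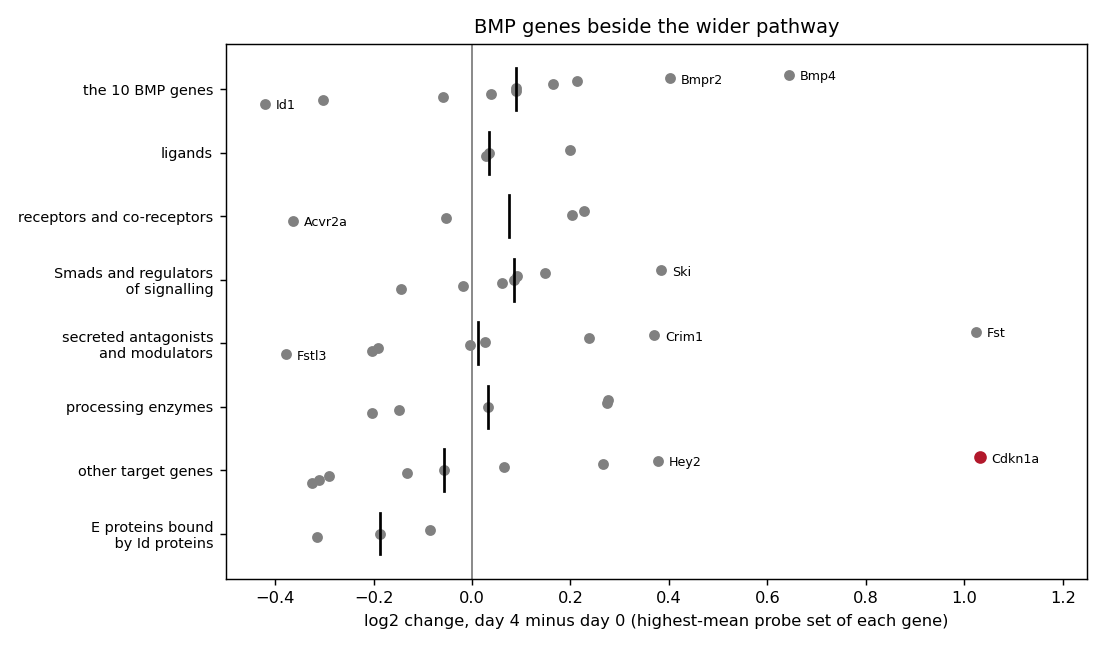
Day 4 minus day 0 log2 change of each gene by its highest-mean probe set, for the 10 BMP genes and for 7 role groups of the wider pathway (points are genes, black ticks group medians, red marks the called gene). Genes at least 0.36 from 0 are named. Cdkn1a and Fst stand apart at about 1, and the group medians lie close to 0.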

How the data were processed

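Endothelial cells sorted from mouse thymus were hybridised to 5 single-colour Affymetrix MOE 430 A 2.0 arrays, 2 of day 4 after irradiation and 3 of untreated mice. The authors deposited log2 values, 1 per probe set and array. Per the submitters' processing notes these came from GCRMA, a background correction, normalization and probe summary; version and joint normalization were not given in the sources used here. Values from 1.57 to 14.38 fit a log2 scale. Of 22690 probe sets, 64 controls were left out. Probe sets above log2 4 on at least 2 arrays (15065) entered lmFit and eBayes in limma 3.58.1 (R 4.3.3), two-sided, without covariates, with Benjamini-Hochberg adjustment. The fit had 3 residual and 3.09 prior degrees of freedom, and the number of arrays limits the precision. It was tested on simulated data, where small changes were seldom called and the share of false calls was above the nominal one. No batch is recorded in the labels.

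Symbols came from the platform annotation, and all 16 member probe sets matched RefSeq by Entrez identifier. The members and gene lists were chosen with earlier results of these data known. The text names every member probe set, each called pathway gene and the highest and lowest gene of each role group. It also names the sort markers and the 3 genes nearest to Bmp4 and Id1. Other genes (Ercc1 and Ifngr1 values, Erg, Bmp5, Bmp8a, Bmp8b, Nog, Tcf4, and those of the last section) were chosen after their values were seen. Alternatives were other normalizations, filters, gene summaries, variance models, a threshold of 0.1, a replicate block and leaving out each array. Figures were drawn with matplotlib 3.10.9.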

Additional observations from a re-analysis of the deposited data

How the results depend on the processing

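Of 206 values of the 16 member probe sets under up to 14 alternatives, 194 kept their direction and their side of the threshold, 0 were called and 12 turned in sign. Many of the 206 could not turn. Other filters, 1 probe set per gene, and an intensity trend with robust fitting leave each difference as it was. The mean of probe sets does so too for a gene with 1 probe set. With each array left out in turn, the differences that turned ranged over -0.35 to 0.23 for Bmp2, -0.028 to 0.12 for Bmp6, -0.45 to 0.34, -0.19 to 0.083 and -0.065 to 0.50 for Bmpr1a 1425491_at, 1425493_at and 1425494_s_at, -0.39 to 0.092 for Id2 1435176_a_at and -0.12 to 0.30 for Smad6. With the mean of probe sets, Id2 differed by -0.061. The cause was not tested. The number of called probe sets was 210 of all tested. It was 53 with array weights, 657 at a threshold of 0.1 and between 14 and 178 with 1 array left out (a lone day 4 array is assumed to vary like the day 0 arrays): 14 when day 4 replicate 1 was omitted, 26 for day 0 replicate 3 and 126 for day 0 replicate 1. Called pathway genes numbered 2 (Cdkn1a and Fst) with 1 probe set per gene, with the mean of probe sets, with an intensity trend and robust fitting and at a threshold of 0.1, and between 0 and 2 with 1 array left out.

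With the replicate number as a block, 401 probe sets, 0 members and 2 pathway genes were called, and Bmp4 differed by 0.75 (limma adjusted p = 0.0940). The labels do not say that arrays of equal number belong together. Deviations from the group means correlated at 0.20 for number 1 and 0.084 for number 2 across probe sets, which are not independent. With 2 day 4 arrays, their deviations are mirror images, so these values cannot decide whether equal numbers are paired. Day 0 replicate 3 has no partner, so the block drops it and leaves fewer residual degrees of freedom than the main fit.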

Other observations

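The low value of Id1 on day 4 replicate 1 was shared by some other genes of the pathway lists, picked out after their values were seen and given as values only. Atoh8, a BMP target in endothelium, stood at 5.86 and 6.57 at day 4, against 6.52, 6.48 and 6.58 at day 0. Sox18, a transcription factor gene of vessels and lymphatics, stood at 8.85 and 9.69 at day 4, against 9.57, 9.41 and 9.69 at day 0. Gata2, an endothelial and blood transcription factor gene, stood at 7.68 and 8.51, against 8.17, 8.35 and 8.17. In all of these, day 4 replicate 1 was the lowest array and day 4 replicate 2 lay close to or above the day 0 values, and none of the genes was called (limma adjusted p = 0.447, 0.554 and 0.792). Over all tested probe sets, day 4 replicate 1 was the lowest array for 29.9% and the highest for 25.1%. For Acvr2a the probe sets went opposite ways: 1437382_at stood at 7.43 and 8.17 at day 4, against 8.11, 8.19 and 8.19 at day 0, and 1451004_at at 6.69 and 6.18, against 6.18, 6.19 and 6.28. The highest-mean probe set of Id4, a relative of Id1 to Id3, ran the other way from Id1. It stood at 8.32 and 8.14 at day 4, against 7.95, 8.07 and 7.87 at day 0 (difference 0.27, limma adjusted p = 0.266). Of the other tested Id4 probe sets, 1423260_at differed by 0.29 and 1450928_at by -0.013, the latter with overlapping groups.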
